A study of Mus musculus with 12 samples.

Results

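Heat shock proteins and DNAJ chaperones are the genes of the cell's protein-folding machinery. They were taken from the deposited expression table by name: every gene named Dnaja, Dnajb, Dnajc, Hsp90, Hspa or Hspb, together with Hspd1, Hspe1, Hsph1, Hsf1 and Hsf2, leaving out pseudogene names and Hspbap1. The rule took 71 of 20457 genes, with 70 distinct symbols because 2 rows are named Hspa14. These were 43 DNAJ genes (4 DNAJA, 13 DNAJB and 26 DNAJC), 13 Hspa rows, 7 genes whose names begin with Hspb, 3 Hsp90 genes and the 5 single genes. Of the 71 members, 67 passed the filter on low values and were tested, which asked for a linear value of 10 or more in 3 or more of the 12 libraries. The 4 that did not were Dnajb8, Dnajc5g, Hspa1b and Hspb2.

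The cells were hematopoietic stem cells of C57BL/6 mouse bone marrow, sorted as positive or negative for IL27RA, a receptor subunit for the cytokine IL27. Old mice were 28 months of age and young mice 2 months, which gave 4 groups of 3 libraries: old IL27RA+, old IL27RA-, young IL27RA+ and young IL27RA-. Each library was made from 50 sorted cells with Smart-Seq2, which amplifies whole cDNAs and does not tag single molecules. The sorting gates are not described in the labels. Since no label ties the libraries of a group to different mice, the spread between them may be technical, and p-values measure that spread alone. For old IL27RA- replicate 1 the labels disagree, with young in 1 field but old in its title and age. It was placed in the old group. Because each library pools cells, a change in the share of cells that express a gene and a change in RNA per cell cannot be told apart.

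HSP70 proteins (the Hspa genes) bind unfolded stretches of other proteins and release them in a cycle driven by ATP. J proteins (the DNAJ genes) bring clients to HSP70 and trigger its ATP hydrolysis, HSP110 proteins such as Hsph1 exchange its nucleotide, and HSP90 proteins act later on clients such as kinases and steroid receptors. Under stress the transcription factor HSF1 binds heat shock elements, arrays of inverted GAA units, and raises the inducible members. In hematopoietic stem cells the control of protein quality is known to be tight and to matter for their maintenance.

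Because heat shock elements mark the inducible members, the windows from 250 bases before to 50 after each annotated start were searched. A pair of inverted units was written as GAANNTTC or TTCNNGAA, and a triple as a pair followed, after any 2 bases, by a further inverted unit (GAA after GAANNTTC, TTC after TTCNNGAA). Each pair pattern reads the same on both strands, the triple patterns are each other's reverse complement, and every triple contains overlapping pairs. Of 57 member symbols with a window, 15 (26.3%) held a pair and 4 (7.02%) a triple, against 17.0% and 0.662% of the 27025 genes in the promoter table. The 4 were Dnajb6, Hspd1, Hspe1 and Hsph1. From 1 of its 2 annotated starts, Hspd1 lies head to head with Hspe1, these starts being 216 bases apart. Their windows share the same stretch of 2 overlapping triples. The window of the other Hspd1 start holds no pair and no triple. A match is a run of letters and not a measured binding site.

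The windows below are those of the 5 members with a window whose 2 highest values came from the same pair of young libraries (Hspa1a, Hsph1, Dnaja1, Hspa4l and Hspa5, described below). With them are shown Hspa1b, as the near-identical copy of Hspa1a, and Hspe1, for the triples it shares with Hspd1. Dnajc6 is shown as the only member called between groups. Hsph1 has 2 annotated starts and Dnaja1 has 3, and the first is shown: the other Hsph1 window holds the same number of pairs and triples, and the other 2 Dnaja1 windows hold none. Capitals mark the pairs and triples. All are RefSeq sequence of GRCm38.p6, written 5′ to 3′ on the gene's own strand. The window of Hspa1a lies at chr17:34972107-34972406, minus strand, that of Hspa1b at chr17:34959189-34959488, minus strand, that of Hsph1 at chr5:149636266-149636565, minus strand, that of Dnaja1 at chr4:40722218-40722517, plus strand, that of Hspa4l at chr3:40745363-40745662, plus strand, that of Hspa5 at chr2:34771840-34772139, plus strand, that of Hspe1 at chr1:55087898-55088197, plus strand and those of Dnajc6 at chr4:101507726-101508025, plus strand and chr4:101550344-101550643, plus strand. Each spans the gene's start, with its last 50 bases inside the transcript.
Hspa1a: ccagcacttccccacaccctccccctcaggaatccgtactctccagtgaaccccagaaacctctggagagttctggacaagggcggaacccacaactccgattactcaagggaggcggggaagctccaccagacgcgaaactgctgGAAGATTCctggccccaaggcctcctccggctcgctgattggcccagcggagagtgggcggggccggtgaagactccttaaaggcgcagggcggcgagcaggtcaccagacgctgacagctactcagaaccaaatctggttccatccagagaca
Hspa1b: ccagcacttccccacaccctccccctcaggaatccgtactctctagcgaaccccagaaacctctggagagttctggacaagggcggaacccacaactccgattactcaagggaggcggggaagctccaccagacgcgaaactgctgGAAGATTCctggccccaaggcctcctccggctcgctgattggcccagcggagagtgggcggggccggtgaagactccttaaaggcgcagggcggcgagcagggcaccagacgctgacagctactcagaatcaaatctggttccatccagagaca
Hsph1: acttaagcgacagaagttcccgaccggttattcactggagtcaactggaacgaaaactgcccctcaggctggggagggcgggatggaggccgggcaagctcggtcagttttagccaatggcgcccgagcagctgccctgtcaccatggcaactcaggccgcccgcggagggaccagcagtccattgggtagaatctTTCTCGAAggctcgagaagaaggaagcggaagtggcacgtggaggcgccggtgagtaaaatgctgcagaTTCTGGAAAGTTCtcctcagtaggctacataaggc
Dnaja1: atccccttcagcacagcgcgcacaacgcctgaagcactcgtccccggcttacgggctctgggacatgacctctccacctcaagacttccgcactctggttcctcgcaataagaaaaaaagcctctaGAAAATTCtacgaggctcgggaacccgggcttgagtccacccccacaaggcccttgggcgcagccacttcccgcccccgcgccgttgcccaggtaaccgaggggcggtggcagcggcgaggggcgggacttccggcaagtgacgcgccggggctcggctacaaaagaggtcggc
Hspa4l: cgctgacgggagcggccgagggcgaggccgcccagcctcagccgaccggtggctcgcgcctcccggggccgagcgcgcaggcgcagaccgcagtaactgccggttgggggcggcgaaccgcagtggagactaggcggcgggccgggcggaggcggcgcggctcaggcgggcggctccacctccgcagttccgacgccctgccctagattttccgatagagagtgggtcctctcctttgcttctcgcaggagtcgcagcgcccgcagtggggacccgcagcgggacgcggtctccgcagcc
Hspa5: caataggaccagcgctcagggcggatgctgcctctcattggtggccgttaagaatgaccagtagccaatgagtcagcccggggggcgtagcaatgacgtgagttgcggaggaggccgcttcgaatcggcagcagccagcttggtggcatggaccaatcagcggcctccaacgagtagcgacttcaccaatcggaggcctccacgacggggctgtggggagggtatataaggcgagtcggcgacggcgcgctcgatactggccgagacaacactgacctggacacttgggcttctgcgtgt
Hspe1: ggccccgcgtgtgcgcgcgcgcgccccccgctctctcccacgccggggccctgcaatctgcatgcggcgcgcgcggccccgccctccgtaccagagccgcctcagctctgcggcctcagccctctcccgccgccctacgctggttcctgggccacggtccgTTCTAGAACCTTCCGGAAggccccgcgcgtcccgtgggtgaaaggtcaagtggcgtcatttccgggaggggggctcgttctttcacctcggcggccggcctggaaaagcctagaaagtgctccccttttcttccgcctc
Dnajc6, start 1: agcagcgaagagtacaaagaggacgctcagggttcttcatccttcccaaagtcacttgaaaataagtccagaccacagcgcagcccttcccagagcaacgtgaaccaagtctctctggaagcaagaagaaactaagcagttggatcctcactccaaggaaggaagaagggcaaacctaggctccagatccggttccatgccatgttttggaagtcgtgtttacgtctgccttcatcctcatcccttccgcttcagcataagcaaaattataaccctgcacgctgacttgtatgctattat
Dnajc6, start 2: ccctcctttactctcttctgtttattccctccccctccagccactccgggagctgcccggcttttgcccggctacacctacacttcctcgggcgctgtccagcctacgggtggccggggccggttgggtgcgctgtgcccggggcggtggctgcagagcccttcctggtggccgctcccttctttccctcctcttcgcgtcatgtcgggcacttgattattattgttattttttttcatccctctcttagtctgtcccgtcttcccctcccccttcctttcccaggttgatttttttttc
The windows of Hspa1a and Hspa1b differed at 4 of 300 bases and carried the same pair. The transcripts of these HSP70 genes are near-identical too, so the authors' counting may have dropped or split their reads, and the level of either is uncertain. The windows of Hspa4l, Hspa5 and Dnajc6 held no pair.

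Libraries held 11669083 to 24153167 reads in genes. All 13 stem cell markers that were examined (among them Procr, Hlf, Mecom and Fgd5) had reads in every library, with summed levels of 70513 to 99642 normalized counts, that is, read counts divided by the authors' size factor. Markers of other cells were also present. The 11 measured macrophage markers summed to 1023 to 5865 normalized counts in old IL27RA+ and 3099 to 5709 in young IL27RA+ libraries, against 276 to 1125 in old IL27RA- and 524 to 579 in young IL27RA- libraries. Old IL27RA- replicate 1 stood apart with 312300 normalized counts of the antibody light chain gene Igkc, against 18.8 to 248 in the other 11. Chaperone members took 1.09 ± 0.04% of reads in old IL27RA+ and 1.09 ± 0.06% in old IL27RA- libraries, against 1.17 ± 0.32% in young IL27RA+ and 1.33 ± 0.32% in young IL27RA- libraries (SD, n = 3). Young IL27RA+ replicate 1 and young IL27RA- replicate 1 stood apart in this share at 1.54% and 1.68%, above the 0.97% to 1.24% of the other 10. Hsp90ab1, Hsp90aa1, Hspa8, Dnaja1 and Hsp90b1 together took 61.9% and 64.8% of member reads there, against 51.2% to 58.7% in the other 10. Over the 67 tested members, the median level, set against the mean of all libraries, was 0.23 and 0.09 (log2) there. It was -0.14 to 0.19 in the other 10, so the median of young IL27RA- replicate 1 lay within their range. Differences of the stress-inducible and HSP70 lists are given with and without both young replicate 1 libraries. Of the named single differences only that of Hsf1, averaged over the fractions, changed its side of the threshold without both.

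Levels spanned 5 orders of magnitude when divided by exon length. Hsp90ab1, the constitutive cytosolic HSP90, was highest at 11594 normalized counts per kilobase (mean of 12 libraries), and Hsp90aa1, its inducible partner, followed at 7733. Next came Hspd1 (the mitochondrial chaperonin HSP60) at 3555, Hspa8 (the constitutive cytosolic HSP70) at 3502 and Hsp90b1 (the endoplasmic reticulum HSP90) at 2941. The ranges of Hspd1, Hspa8 and Hsp90b1 over libraries overlapped, so their order is not distinct. Dnajc5g, Hspa1b and Dnajb8 were lowest, at 0.106, 1.14 and 1.26 normalized counts per kilobase. Hspa8, Hsp90ab1, Hspd1 and Hspe1 have many processed pseudogenes in mouse, so reads may have been lost or split in the counting. The median within-group SD of the members was 0.60 (log2), against 0.71 over all genes tested. The genes were not matched for level, so this does not set the family apart from other genes of like level.

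**Figure D1:**
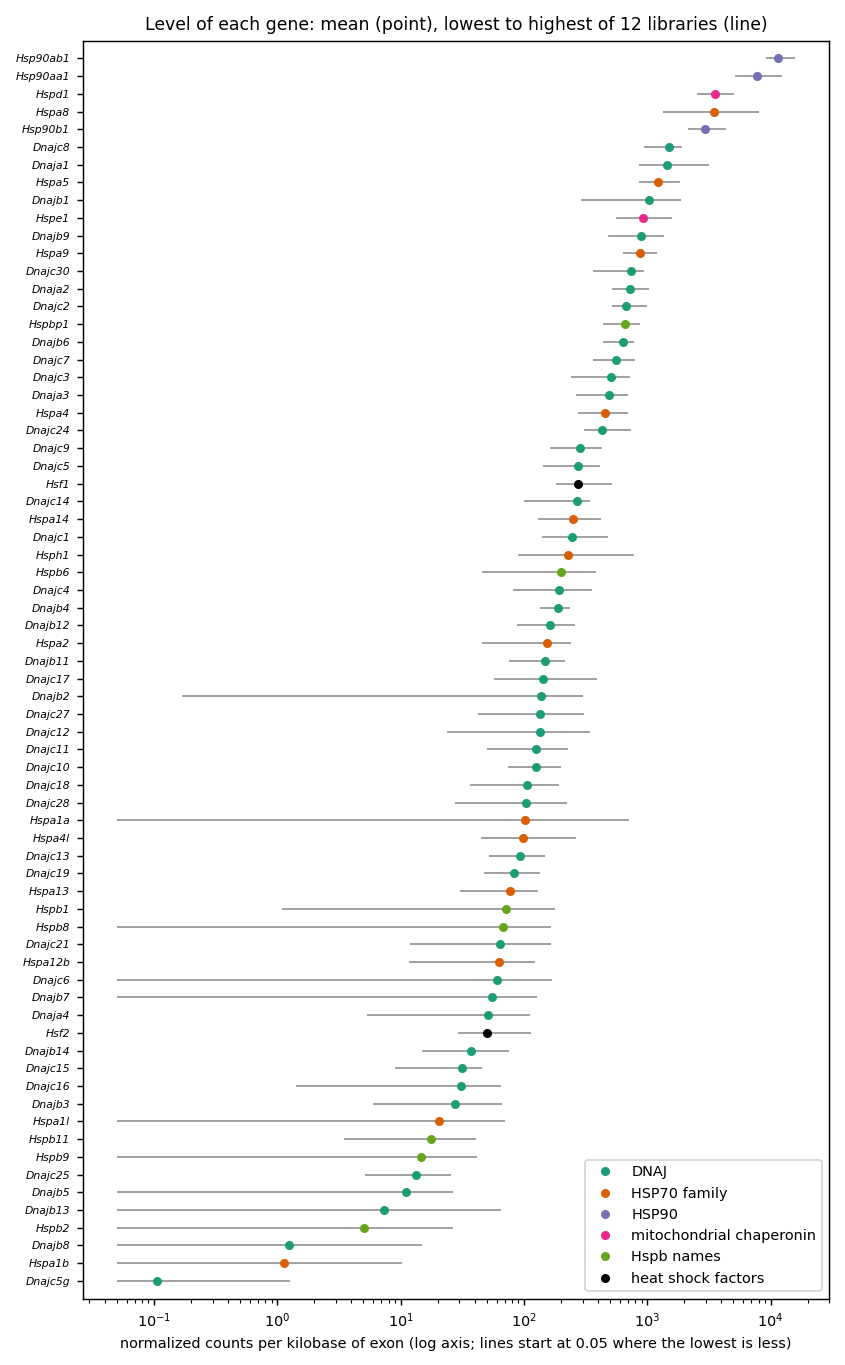
Mean normalized counts per kilobase of exon for the 70 members with an annotated length (points, log axis, coloured by family) and the lowest to highest of 12 libraries (lines). Hsp90ab1 and Hsp90aa1 stand at the top, while the lines of Hspa1a, Dnajc6 and Hspb8 reach 0 in at least 1 library.

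The stress-inducible list held members known to rise under heat shock: Hspa1a, Hspa8, Hspa4l, Hsph1, Hsp90aa1, Hsp90ab1, Dnaja1, Dnajb1, Dnajb4, Hspb1, Hspd1 and Hspe1, which were tested, and Hspa1b, which was not. It takes in genes that cells also express without stress, such as Hspa8 and Hsp90ab1, and the mitochondrial Hspd1 and Hspe1. Of the 12 tested, 6 had their 2 highest values in the replicate 1 libraries of the young fractions (Hspa1a, Hspa8, Hspa4l, Hsph1, Hsp90aa1 and Dnaja1). This pattern was noticed after the values were seen and is given per library with no test. Hspa1a, the inducible HSP70, stood at 3.7, 83.3 and 38.7 normalized counts in old IL27RA+ libraries, 0, 0 and 57.8 in old IL27RA- libraries, 1085, 1.14 and 2.51 in young IL27RA+ libraries and 2095, 238 and 0 in young IL27RA- libraries. Hsph1, an HSP110, stood at 674, 1307 and 748 normalized counts in old IL27RA+ libraries, 648, 1496 and 1249 in old IL27RA- libraries, 3572, 876 and 982 in young IL27RA+ libraries and 5719, 1949 and 817 in young IL27RA- libraries. Dnaja1, the main cytosolic type I J protein, stood at 8909.8, 10639 and 9689 normalized counts in old IL27RA+ libraries, 9268, 11360.3 and 8534 in old IL27RA- libraries, 27209, 8294 and 7464 in young IL27RA+ libraries and 26525, 12759 and 9579.8 in young IL27RA- libraries. For each of these genes the 2 young replicate 1 libraries lay above all 10 others, and the other young libraries overlapped the old ones.

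Further members showed the same order. Hspa8 stood at 11526, 12348 and 15089.6 normalized counts in old IL27RA+ libraries, 5795, 15565 and 13862 in old IL27RA- libraries, 24781, 9852 and 8717 in young IL27RA+ libraries and 34869.7, 13396 and 14945 in young IL27RA- libraries. Hsp90aa1 stood at 33242, 32994 and 30334 normalized counts in old IL27RA+ libraries, 33398, 29228 and 26614 in old IL27RA- libraries, 42298, 20672 and 20147 in young IL27RA+ libraries and 48491, 26836 and 20514 in young IL27RA- libraries. Hspa4l, an HSP110-type exchange factor known from testis, stood at 977, 873 and 1315 normalized counts in old IL27RA+ libraries, 791, 1173 and 1052 in old IL27RA- libraries, 3105, 525 and 741 in young IL27RA+ libraries and 1732, 959 and 747 in young IL27RA- libraries. The 2 highest values were again those of the young replicate 1 libraries, and so they were for Hspa5 (BiP, the endoplasmic reticulum HSP70), which stood at 4605, 4558 and 5218 normalized counts in old IL27RA+ libraries, 6914, 5199.6 and 4376 in old IL27RA- libraries, 7555, 4171 and 3742 in young IL27RA+ libraries and 7738, 4538 and 3642 in young IL27RA- libraries.

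In all, these 2 libraries held the 2 highest of 12 values for 7 of 67 members (10.4%), against 1.31% of all genes tested. They lay above the other 4 young libraries for 15 of 67 members (22.4%), against 7.72% of all genes. The 2 libraries were picked because members were high in them, so an excess over all genes follows from that choice and is no test. Among the 12 tested members of the stress-inducible list the counts were 6 and 9. Among 25 DNAJC members they were 0 and 1, and among 10 mitochondrial members 0 and 0. Over the mean of the other 4 young libraries, the level in young IL27RA+ replicate 1 and in young IL27RA- replicate 1 was 2.86-fold and 2.78-fold for Dnaja1, 2.11-fold and 2.97-fold for Hspa8, 3.09-fold and 4.95-fold for Hsph1 and 1.92-fold and 2.20-fold for Hsp90aa1.

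Other inducible members were not in that count. Dnajb1, the inducible J protein partner of HSP70, stood at 2982, 2820.1 and 4228 normalized counts in old IL27RA+ libraries, 2713, 3785 and 3043 in old IL27RA- libraries, 3955, 1894 and 923 in young IL27RA+ libraries and 6058, 3605 and 3635 in young IL27RA- libraries. Its highest value was that of young IL27RA- replicate 1, but young IL27RA+ replicate 1 lay within the range of the old libraries. Hspb1, a small heat shock protein that holds unfolding clients, stood at 14.8, 52.7 and 69.1 normalized counts in old IL27RA+ libraries, 88.6, 101 and 183 in old IL27RA- libraries, 133, 1.14 and 31.4 in young IL27RA+ libraries and 149.6, 22.2 and 38.6 in young IL27RA- libraries, with its highest value in old IL27RA- replicate 3. Hspa1b had reads in 4 of 12 libraries, 46 in all, and its highest levels, 28.7 and 7.52 normalized counts, were those of young IL27RA- replicate 1 and young IL27RA+ replicate 1.

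Some partners of HSP70 and HSP90 outside the family showed the same order and others did not. The 2 libraries held the 2 highest values for 6 of 20 co-chaperones: Stip1, which links HSP70 to HSP90, Ahsa1, which stimulates the HSP90 ATPase, Fkbp4, Chordc1, Cacybp and St13. Stip1 had 5399 and 6280.5 normalized counts in young IL27RA+ replicate 1 and young IL27RA- replicate 1, against 1848 to 3482 in the other libraries. They lay above the other young libraries for 7 of the 20, and Stub1, a ubiquitin ligase that binds both chaperones, stood at 0.73-fold and 0.71-fold of the mean of the other 4 young libraries. They held them for 5 of 13 subunits of the chaperonin TRiC and of prefoldin (Tcp1, Cct2, Cct5, Cct8 and Pfdn1), for 1 of 22 genes of the unfolded protein response (Xbp1), and for 0 of 14 mitochondrial import genes, 0 of 14 immediate early genes and 0 of 30 cell cycle genes. Immediate early genes are the first to be transcribed when cells are stimulated. Their median level, set against the mean of all libraries, was -0.29 and -0.08 (log2) in these 2 libraries. It was -0.52 to 0.60 in the other 10. The median level of the cell cycle genes was 1.21 and 1.06 in the 2. Old IL27RA+ libraries stood above, at 1.45 to 2.17, so the 0 of 30 does not mean low levels in the 2. The other young libraries stood at 1.38 and -0.58 (IL27RA+) and at -0.13 and -0.76 (IL27RA-). The median level of the stress-inducible members was 0.87 and 0.86 in the 2, against -0.52 to 0.18 in the other 10. Over all genes tested, deviations from the group mean correlated at r = 0.11 between these 2 libraries, the highest r of any pair of libraries from different groups. The labels give no batch, and whether a shared batch, handling or the replicate number moved these libraries was not tested.

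**Figure D2:**
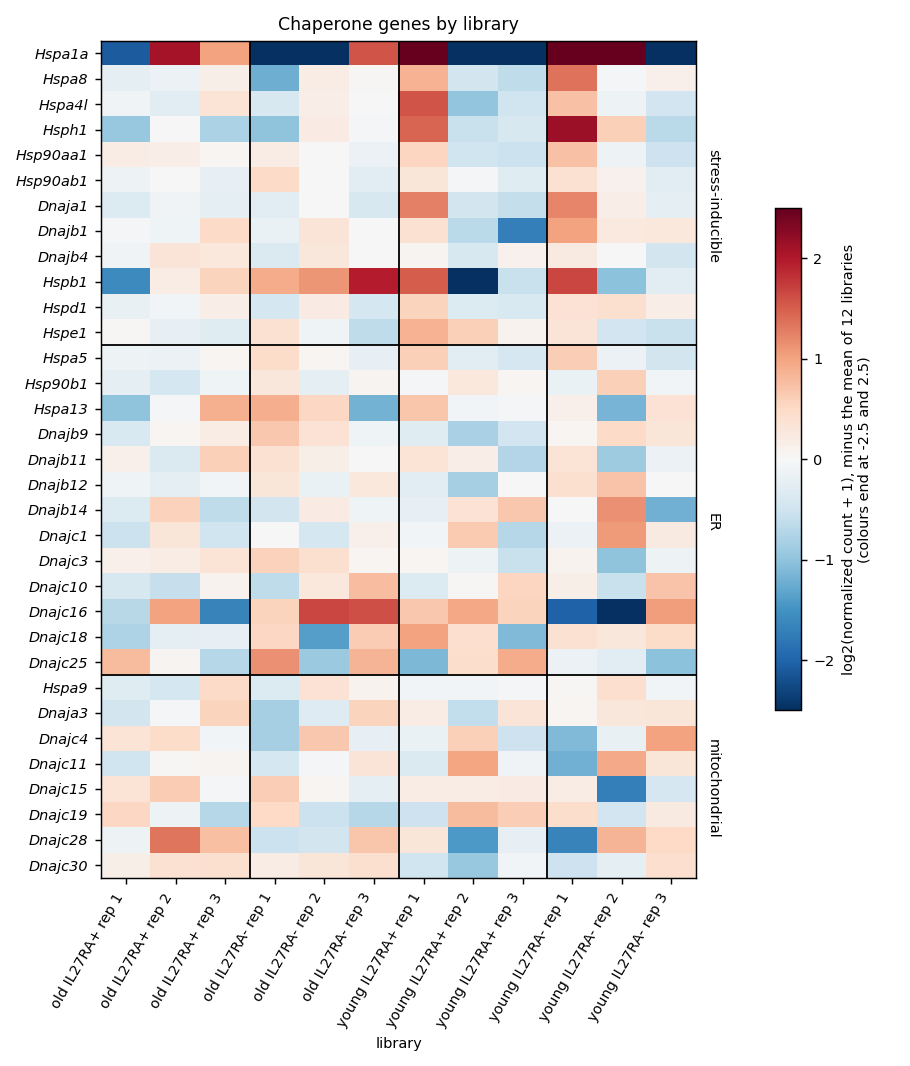
Log2(normalized count + 1) minus the mean of 12 libraries for stress-inducible, endoplasmic reticulum (ER) and mitochondrial members, 1 column per library, with colours ending at -2.5 and 2.5. The replicate 1 columns of both young groups are red through most of the stress-inducible block, with medians of 0.87 and 0.86, and mixed in the ER and mitochondrial blocks.

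Of the members with these highest values, 5 had a promoter window, and 3 of the 5 (Dnaja1, Hspa1a and Hsph1, printed above) held a pair of units. Those of Hspa4l and Hspa5 held none. Of 10 stress-inducible members with a window, 8 held a pair and 3 a triple, against 17.0% and 0.662% of all genes in the promoter table. The triples of Hspd1 and Hspe1 are the same stretch, and the list itself was made of genes known to rise under heat shock.

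Between old and young cells, averaged over the fractions, Dnajc6 rose and no other member was called. Dnajc6 encodes auxilin, a J protein that recruits HSP70 to strip the clathrin coat from vesicles, known mainly from neurons. It stood at 991, 759.6 and 775 normalized counts in old IL27RA+ libraries, 92.4, 305 and 555 in old IL27RA- libraries, 296, 417 and 60.2 in young IL27RA+ libraries and 10.3, 25.8 and 0 in young IL27RA- libraries. All old IL27RA+ libraries lay above all young ones, all young IL27RA- libraries lay below 30 normalized counts, and old IL27RA- replicates 1 and 2 lay within the range of the young IL27RA+ libraries. Group means were 842 ± 129 in old IL27RA+, 318 ± 232 in old IL27RA-, 258 ± 181 in young IL27RA+ and 12 ± 13 in young IL27RA- libraries (SD, n = 3). The averaged difference was 3.66 ± 0.81 on the log2(normalized count + 1) scale (SE), and its 95% interval ran over 1.93 to 5.38. The limma adjusted p was 0.0322.

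The call covered 1 of 67 members (1.49%), beside 1.85% of all 14803 genes tested, so the family was called no more often than other genes. Without any 1 of 6 libraries (old IL27RA+ replicates 1, 2 and 3, old IL27RA- replicates 2 and 3 and young IL27RA+ replicate 3) the call of Dnajc6 was lost, at limma adjusted p = 0.0769 to 0.0907, with differences of 3.24 to 3.69. Without both young replicate 1 libraries it held (3.99, adjusted p = 0.0418). Genes listed as markers of other cells moved with age too, although such a change can also lie in the stem cells themselves. Stroma and endothelium markers were negative for 4 of 4 tested, with Emcn called as lower. Megakaryocyte and platelet markers were positive for 7 of 8 tested, with Vwf, Selp and Itgb3 called, and summed to 9467 to 18469 normalized counts in old IL27RA+ and 12822 to 20494 in old IL27RA- libraries, against 3252 to 4209 in young IL27RA+ and 3444 to 6409 in young IL27RA- libraries. The 9 granulocyte markers summed to 7794 to 10648 normalized counts in old IL27RA+ and 9052 to 13163 in old IL27RA- libraries, against 4075 to 5484 in young IL27RA+ and 3646 to 4436 in young IL27RA- libraries, although 4 of the 6 tested were negative and Prtn3 alone was called, as higher. Their part in the difference of Dnajc6 was not tested. The median difference over the 67 members was -0.01, beside 0.06 over all genes, with 33 members positive and 34 negative.

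Within the IL27RA- fraction, old minus young, Dnajc6 differed by 5.23 ± 1.14 (interval 2.79 to 7.66), with groups that did not overlap, and its limma adjusted p of 0.0546 lay just over the threshold. Without young IL27RA+ replicate 3, young IL27RA- replicate 1 or young IL27RA- replicate 2 it was called (limma adjusted p = 0.0473, 0.0442 and 0.0275). Within the IL27RA+ fraction it differed by 2.09 ± 1.14 (limma adjusted p = 0.648), again without overlap. Between the fractions, Dnajc6 differed by 1.73 ± 1.14 in old cells and by 4.87 ± 1.14 in young cells, IL27RA+ minus IL27RA- (limma adjusted p = 1 and 0.236). Neither passed the threshold. The fractions did not overlap at either age, which is a description and no test. The age difference in IL27RA+ cells minus that in IL27RA- cells was -3.14 ± 1.61 (limma adjusted p = 0.942), which did not pass either.

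**Figure D3:**
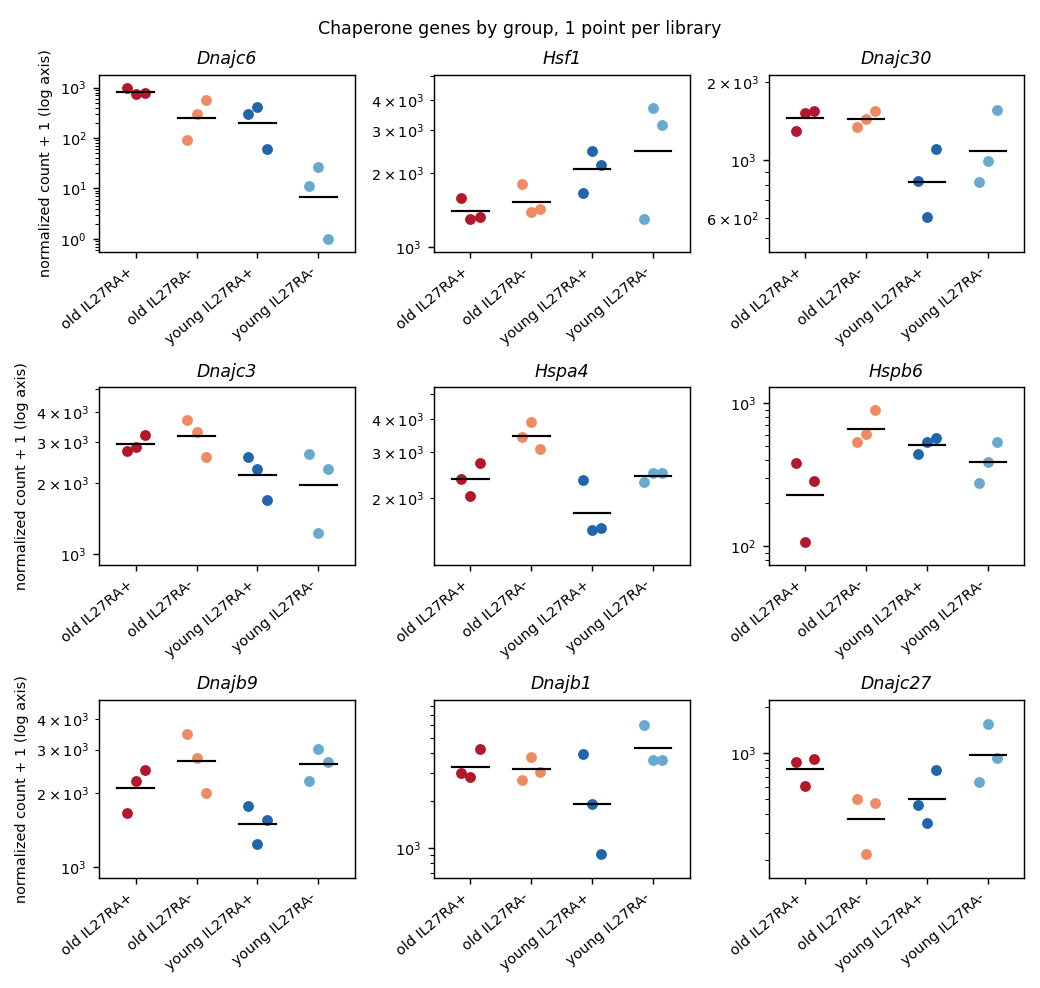
Normalized counts + 1 (log axis) of 9 members in each library (points) and the group means on the log scale (lines), old groups left of young ones. Old IL27RA+ libraries hold 759.6 to 991 normalized counts of Dnajc6, and young IL27RA- libraries 0 to 25.8.

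Among the transcription factors of the family, Hsf1 stood lower in old cells without passing the test over all libraries. Hsf1, the master factor of the heat shock response, stood at 1588, 1303 and 1322 normalized counts in old IL27RA+ libraries, 1807, 1391 and 1427 in old IL27RA- libraries, 1663, 2476 and 2175 in young IL27RA+ libraries and 1301, 3713 and 3147 in young IL27RA- libraries. In the IL27RA+ fraction the old libraries lay below all young ones, while in the IL27RA- fraction the low young replicate 1 library made the ages overlap. The averaged difference, old minus young, was -0.63 ± 0.24 (interval -1.14 to -0.12, limma adjusted p = 0.22). Without young IL27RA- replicate 1 it was -0.86 and was called (limma adjusted p = 0.0201). Without both young replicate 1 libraries it was -0.94 (limma adjusted p = 0.0144). Leaving out both was chosen after seeing the data. Both held the lowest young values of Hsf1 (1663 and 1301), so leaving them out was bound to enlarge the difference and gives no further evidence for it. These are the libraries in which the inducible members above were highest. Hsf2, a second factor linked to development and cell division, stood at 313, 295 and 496 normalized counts in old IL27RA+ libraries, 657, 376 and 283 in old IL27RA- libraries, 373, 705 and 346 in young IL27RA+ libraries and 515, 1089 and 303 in young IL27RA- libraries, with overlapping groups (difference -0.38 ± 0.37, adjusted p = 0.702).

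Other members with the smallest unadjusted p in the averaged age comparison did not pass the adjusted test. Dnajc30, a mitochondrial J protein, stood at 1298, 1521 and 1551 normalized counts in old IL27RA+ libraries, 1337, 1446 and 1545 in old IL27RA- libraries, 828, 602 and 1107 in young IL27RA+ libraries and 821, 996 and 1567 in young IL27RA- libraries. It was higher in old cells by 0.61 ± 0.22 (limma adjusted p = 0.188). In the IL27RA+ fraction all old libraries lay above all young ones (0.82 ± 0.30, adjusted p = 0.426). Hspa4, an HSP110 exchange factor, differed by 0.46 ± 0.16 (adjusted p = 0.19). Dnajc3, known as P58IPK, which acts in the endoplasmic reticulum and curbs the kinase PERK, stood at 2729, 2857 and 3189.7 normalized counts in old IL27RA+ libraries, 3707, 3306 and 2584 in old IL27RA- libraries, 2587, 2307 and 1694 in young IL27RA+ libraries and 2663, 1237 and 2296 in young IL27RA- libraries, a difference of 0.56 ± 0.20 (adjusted p = 0.199). Its old libraries lay above the young ones in the IL27RA+ fraction but reached down to young values in the IL27RA- fraction. On the lower side, Hspa14 (the ribosome-associated HSP70, row ENSMUSG00000051396) differed by -0.55 ± 0.24 and Dnajc13, an endosomal J protein, by -0.55 ± 0.26 (adjusted p = 0.297 and 0.337).

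In all, 8 of 67 members (11.9%) reached an unadjusted p under 0.05 in the averaged age comparison, beside 15.1% of all genes. Over the 12 stress-inducible members the median age difference was -0.16, with 4 positive and 8 negative, beside 0.06 over all genes. Without the young replicate 1 libraries it was 0.18, with 9 positive and 3 negative, beside 0.09 over all genes. These libraries were singled out because members of this list were highest in them. Leaving them out was therefore bound to raise the old minus young difference, here and within each fraction. The change of sign is a description and gives no evidence on age. The endoplasmic reticulum members had a median of 0.03 and the mitochondrial members one of -0.12. No gene of the co-chaperone list (20 tested), the TRiC and prefoldin list (13), the unfolded protein response list (22), the mitochondrial import list (14) or the immediate early list (14) was called, in this or in any other comparison. Their median age differences were -0.07, 0.06, 0.07, -0.16 and 0.22.

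In the IL27RA- fraction, old against young, no member was called, beside 0.669% of all genes, and 7 members (10.4%) reached an unadjusted p under 0.05 in limma, beside 12.5% of all genes. Limma voom on the recovered reads also called 0. Over the stress-inducible members the median difference was -0.28, with 3 positive and 9 negative, and -0.03 without the young replicate 1 libraries, with 6 positive and 6 negative. Dnajc27, which carries a J domain and a RAB-type GTPase fold, stood at 875, 607 and 915 normalized counts in old IL27RA+ libraries, 498, 217 and 471 in old IL27RA- libraries, 457, 349 and 779 in young IL27RA+ libraries and 647, 1549 and 932 in young IL27RA- libraries. Its old libraries lay below its young ones in this fraction (-1.40 ± 0.45, limma adjusted p = 0.206), and the ages overlapped in the IL27RA+ fraction. The difference between the 2 age differences was 2.05 ± 0.64 (interaction, limma adjusted p = 0.872), so the fractions were not shown to differ. Dnajc16, an endoplasmic reticulum J protein, stood at 81.3, 267 and 41 normalized counts in old IL27RA+ libraries, 195, 423 and 404 in old IL27RA- libraries, 211, 259 and 196 in young IL27RA+ libraries and 31.8, 9.3 and 275 in young IL27RA- libraries and differed by 2.83 ± 1.06 in the IL27RA- fraction (adjusted p = 0.287), with its young values spread from 9.30 to 275.

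Hspa4 stood at 2366, 2025 and 2724 normalized counts in old IL27RA+ libraries, 3413, 3891 and 3080.3 in old IL27RA- libraries, 2349, 1506 and 1530.0 in young IL27RA+ libraries and 2299.7, 2498 and 2494 in young IL27RA- libraries. In the IL27RA- fraction every old library lay above every young one (0.50 ± 0.23, limma adjusted p = 0.388). The second row named Hspa14 (ENSMUSG00000079615) had the largest negative difference (-5.05 ± 1.58, adjusted p = 0.193) at 82.2, 82.4 and 48 normalized counts in old IL27RA+ libraries, 0.963, 56 and 1.26 in old IL27RA- libraries, 137, 2.27 and 162 in young IL27RA+ libraries and 129, 398 and 175 in young IL27RA- libraries. The first row had 566, 769 and 1204 normalized counts in old IL27RA- libraries and 1265, 1845 and 1319 in young IL27RA- libraries (difference -0.85 ± 0.34, adjusted p = 0.316). The rows share a symbol, and reads of overlapping genes may have been split between them. Hspd1, with 8068, 8703 and 10237 normalized counts in old IL27RA+ libraries, 6753, 10577 and 6721 in old IL27RA- libraries, 13417, 7216 and 7063 in young IL27RA+ libraries and 11703, 12027 and 10218 in young IL27RA- libraries, differed by -0.53 ± 0.26 in this fraction (adjusted p = 0.414), with overlap.

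In the IL27RA+ fraction, old against young, no member was called either, beside 0.426% of all genes. In limma 3 members (4.48%) reached an unadjusted p under 0.05, beside 8.88% of all genes, and voom called 0. Hspb6, a small heat shock protein best known from muscle, stood at 378, 105 and 286 normalized counts in old IL27RA+ libraries, 531, 605 and 888 in old IL27RA- libraries, 437, 534 and 571 in young IL27RA+ libraries and 276, 387 and 536 in young IL27RA- libraries. Its old libraries lay below all young ones in this fraction (-1.18 ± 0.50, limma adjusted p = 0.509). Hspe1, the cochaperonin HSP10, stood at 1323, 1117 and 1041 normalized counts in old IL27RA+ libraries, 1674, 1194 and 828 in old IL27RA- libraries, 2354, 1936 and 1367 in young IL27RA+ libraries and 1619, 931 and 879.8 in young IL27RA- libraries, and likewise did not overlap between the ages in the IL27RA+ fraction (-0.67 ± 0.33, adjusted p = 0.597). Hspd1, its partner on the shared promoter, had overlapping ages there. Hspb9, a testis-enriched member, had 9.24, 26.8 and 5.86 normalized counts in old IL27RA+ libraries and 1.88, 0 and 0 in young IL27RA+ libraries, a difference with limma adjusted p = 0.561. Its young values lay below the floor of 3 reads (1.93 to 3.77 normalized counts by library), so no fold is given. Dnajc12, Dnajb1, Dnajb13 and Dnajc13 completed the members with the smallest p, with adjusted p from 0.61 to 0.67 and overlapping ages. Over the stress-inducible members the median difference was 0.01 with all libraries and 0.40 without the young replicate 1 libraries.

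Between the sorted fractions no member was called at either age, beside 0.0203% of all genes in old cells and 0.0203% in young cells. In old cells, 4 members (5.97%) reached an unadjusted p under 0.05 in limma, beside 5.38% of all genes. In young cells 6 did (8.96%), beside 8.23%, and voom called 0 at both ages. Macrophage markers moved with the fractions (10 of 10 tested were positive at each age, with median differences of 5.15 in old and 5.98 in young cells), and so did cell cycle genes (30 of 30 positive with a median of 3.62 in old cells, and 23 of 30 with a median of 0.79 in young cells). Erythroid markers were positive for 6 of 7 in old cells (median 0.68) and 7 of 7 in young cells (median 3.63), and granulocyte markers for 4 of 6 (median 1.13) and 5 of 6 (median 4.01). Stem cell markers were negative for 11 of 13 in old cells (median -0.31) and 10 of 13 in young cells (median -0.29). Their part in any chaperone difference was not tested.

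In old cells Hspb6 had the smallest p. Its IL27RA+ libraries (378, 105 and 286 normalized counts) lay below its IL27RA- libraries (531, 605 and 888), a difference of -1.54 ± 0.50 (limma adjusted p = 0.531). In young cells the fractions overlapped, and the interaction was -1.95 ± 0.70 (adjusted p = 0.872). Hspa4 was also lower in old IL27RA+ cells without overlap (-0.55 ± 0.23, adjusted p = 0.861), and Dnajc27 was higher (1.08 ± 0.45, adjusted p = 0.86). Dnajc21, a J protein of ribosome assembly, stood at 269, 413 and 374 normalized counts in old IL27RA+ libraries, 127, 150.5 and 100.5 in old IL27RA- libraries, 476, 797 and 117 in young IL27RA+ libraries and 57.3, 277 and 503 in young IL27RA- libraries, higher in old IL27RA+ than in old IL27RA- libraries without overlap (1.47 ± 0.81, adjusted p = 1).

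All 13 endoplasmic reticulum members stood lower in old IL27RA+ than in old IL27RA- cells, with a median difference of -0.28, beside 0.02 over all genes, and none was called. Without old IL27RA- replicate 1, the library with 312300 normalized counts of Igkc, 9 of the 13 were negative and the median was -0.10, beside 0.01 over all genes. Leaving out other libraries kept 11 to 13 of the 13 negative. That library held the highest level of Dnajb9 (ERdj4, a BiP partner), which stood at 1662, 2237 and 2477 normalized counts in old IL27RA+ libraries, 3481, 2774 and 2005 in old IL27RA- libraries, 1759.6, 1232 and 1551 in young IL27RA+ libraries and 2234, 3018 and 2669.8 in young IL27RA- libraries. It also held the highest old level of Hspa5 (6914 normalized counts, against 4376 to 5218 in the other old libraries) and of Hsp90b1, which stood at 9996, 8598 and 10871 normalized counts in old IL27RA+ libraries, 14109, 9836 and 12171 in old IL27RA- libraries, 11440.3, 14037 and 12068 in young IL27RA+ libraries and 10444, 17589.9 and 11120.0 in young IL27RA- libraries. The median level of the 13 members, set against the mean of all libraries, was 0.46 (log2) in that library and -0.35 to 0.16 in the others. Dnajc10, also of the 13, had its lowest level there (376 normalized counts). The unfolded protein response list stood at 0.13 there and at -0.18 to 0.16 in the others. Igkc made up 312300 of the 313703 normalized counts of B and plasma cell markers in that library. Antibody-secreting cells are known for abundant endoplasmic reticulum chaperones, and their part in these values was not tested.

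In young cells Dnajb9 was lower in IL27RA+ than in IL27RA- libraries without overlap (-0.81 ± 0.26, limma adjusted p = 0.424). Averaged over the ages its difference was -0.58 ± 0.19 (adjusted p = 0.363), beside that of Hspa4 at -0.51 ± 0.16 (adjusted p = 0.369). Dnajb1 differed by -1.17 ± 0.40 in young cells (adjusted p = 0.452), with overlap through young IL27RA+ replicate 1. Hspe1 was higher in young IL27RA+ cells by 0.74 ± 0.33 (adjusted p = 0.594), with overlap. Dnajb12, an endoplasmic reticulum J protein for membrane clients, was lower without overlap (-0.75 ± 0.37, adjusted p = 0.62). Of 12 HSP70-family members, 11 stood lower in young IL27RA+ than in young IL27RA- cells, with a median of -0.46, beside 0.04 over all genes, and none was called. Without both young replicate 1 libraries 11 stood lower and the median was -0.53, and without young IL27RA- replicate 1 alone 6 stood lower and the median was -0.06. Over the stress-inducible members the median was -0.34, with 10 of 12 negative. It was -0.47, again with 10 negative, without both young replicate 1 libraries, and 0.13, with 4 negative, without young IL27RA- replicate 1 alone.

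Averaged over the ages, no member was called between the fractions, beside 0.189% of all genes, and 3 (4.48%) reached an unadjusted p under 0.05, beside 7.98%. For the interaction of age and fraction, limma called no gene at all (0.0%), and 5 members (7.46%) had an unadjusted p under 0.05, beside 5.19% of all genes. Voom called 0 members in both.

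**Figure D4:**
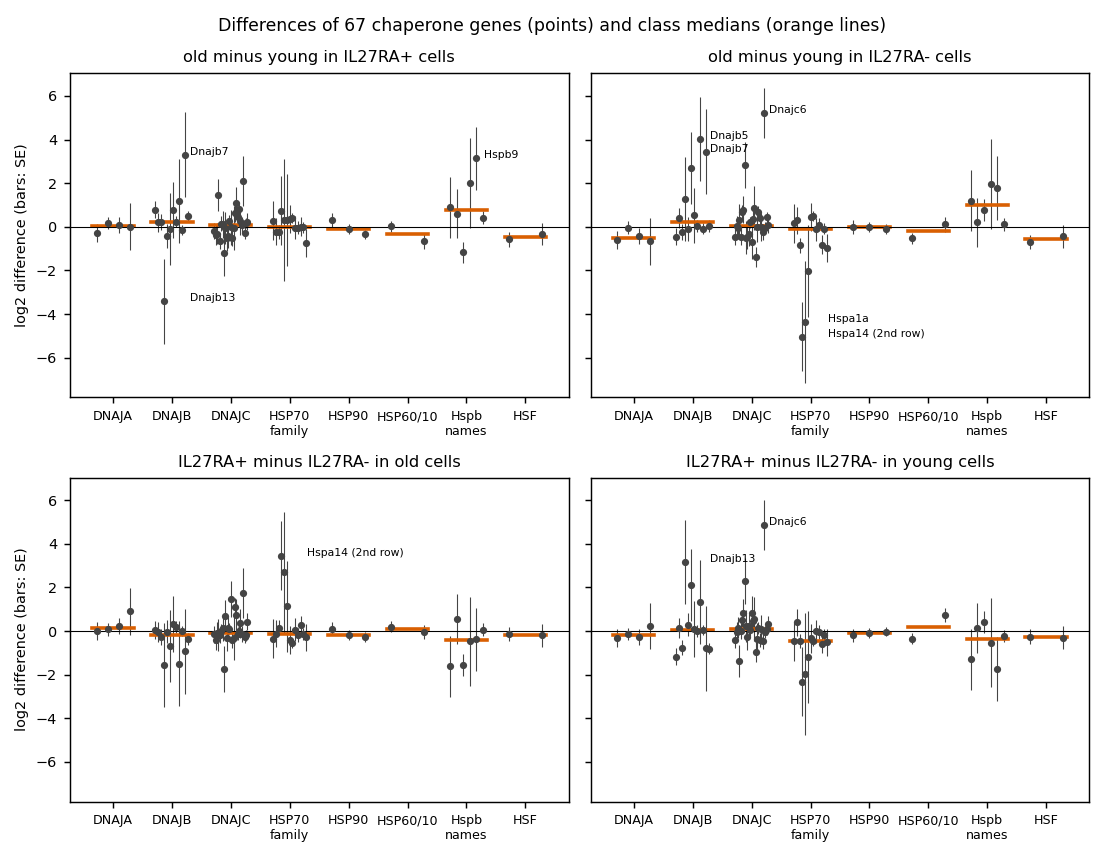
Log2 differences of the 67 tested members (points, bars are SE) by class in the 4 pairwise comparisons, with class medians as orange lines. Dnajc6 stands highest in old minus young IL27RA- cells and in young IL27RA+ minus IL27RA- cells, while most classes centre near 0.

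Several members varied little over the 12 libraries. Hsp90ab1 stood at 31172, 34039 and 29611 normalized counts in old IL27RA+ libraries, 47776, 33779.8 and 28240.3 in old IL27RA- libraries, 42029.7, 33031 and 27704 in young IL27RA+ libraries and 44702, 36736 and 28416 in young IL27RA- libraries, a range of 1.72-fold over all libraries, while Dnajb4 and Dnajb6 ranged over 1.72-fold and 1.76-fold. Hspa9 (mortalin, the mitochondrial HSP70) stood at 2988, 2749 and 5149 normalized counts in old IL27RA+ libraries, 2937, 4735 and 3957 in old IL27RA- libraries, 3521, 3518 and 3582 in young IL27RA+ libraries and 3776, 4931 and 3514 in young IL27RA- libraries, with overlapping groups. Of the 67 tested members, 59 had a read in all 12 libraries, and 8 stood at 0 in at least 1. Dnajb8 had reads in 1 library and Dnajc5g in 1, with 23 and 2 reads.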

How the data were processed

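Gene expression was measured in 12 libraries, 3 in each of 4 groups, placed by their titles and ages. Per the submitters' processing notes, the tools included TopHat2 2.1.1, HTSeq, DESeq2 and FastQC 0.11.5, in roles that are not stated. Neither the strand setting of the counting nor a genome build is given in the sources, so reads of overlapping genes cannot be told apart. The authors deposited log2 values, which from the values themselves are log2 of the read count over a size factor, plus a pseudocount of 1. All values (100%) came out as whole reads, within 0.001 reads. The column of young IL27RA- replicate 2 was treated as the other deposited log2 columns, after 1 damaged line and 15 repeated identifiers of the 20473 lines were left out.

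Raising 2 to the deposited value and subtracting 1 gave normalized counts. A floor of 3 reads corresponds to 1.93 to 3.77 normalized counts, and, as amplified reads are not separate molecules, covers only counting error. A limma model (version 3.58.1, R 4.3.3) with the variance following mean level was fitted to all 12 libraries with 1 mean per group (8 residual and 6.58 prior degrees of freedom). The 14803 genes with at least 3 libraries at 10 on the linear scale entered, with Benjamini-Hochberg adjustment over all of them and a threshold of 0.05. For low genes, differences on the log2(normalized count + 1) scale understate the change. Lack of overlap between groups of 3 libraries can arise by chance. It is given without its share over all genes, describes the libraries only and adds nothing to a test that was not passed. The fit was also run on simulated counts that held no shared shift between libraries, and no result here draws on that run.

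Exon lengths and gene types came from the GENCODE annotation, matched by identifier for 70 of 71 members, and promoter windows from the RefSeq table. Members named in the text were those called, those fixed by role, the first 4 by p among the higher and among the lower in each comparison, and the 5 with the highest level per kilobase. The members and the gene lists were chosen with earlier results of these data known. Alternatives covered the pseudocount, filter, scaling, weights, voom on recovered reads, a replicate block, fits to the compared groups alone and each library left out.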

Additional observations from a re-analysis of the deposited data

How the results depend on the processing

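Of 1260 recomputed values of 56 named differences, 1246 kept their direction and their side of the threshold, 6 lost it, 8 gained it and 0 changed sign. The count of members called for age averaged over the fractions was 1, and ranged from 0 to 2 as single libraries were left out. It was 2 without both young replicate 1 libraries, an alternative chosen after seeing the data. For age in IL27RA- cells the count was 0. It was 1 with a pseudocount of 5, with library weights, without young IL27RA- replicate 2 and old IL27RA- replicate 1 together, and without both young replicate 1 libraries, and ranged from 0 to 2 as single libraries were left out. Dnajc6 and Hsf1 made up these counts, and the cause was not tested. In the other 5 comparisons the count was 0 under every alternative run. With a replicate block Dnajc6 differed by 3.66 (limma adjusted p = 0.0362) and the count was 1. Whether the numbers pair the libraries was not settled. Deviations of 18 same-numbered pairs correlated at -0.05 to 0.11, with 1 over 0.1 (the young replicate 1 libraries). By this measure 6 of 12 libraries were closest to their own number. Most of these pairs join an old and a young library, which cannot share a mouse. Within an age, same-numbered libraries of different fractions correlated at 0.004 to 0.11, all above 0, and differently numbered ones at -0.07 to 0.04. The replicate block joined both ages under each number and so did not model pairs within an age. Fits to the compared groups alone were run only for the 4 pairwise comparisons. With 3 libraries of 50 cells a group and read floors of up to 3.77 normalized counts, differences of low members such as Hspb9 and Hspa1a could not be measured precisely.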
